A study of Arabidopsis thaliana with 4 samples.

Results

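Chromosome 2 of Arabidopsis thaliana is acrocentric, with its centromere close to the northern end, so a short arm and a long arm share a single pericentromere. Contacts within this chromosome were taken from maps of endosperm and leaf divided into bins of 100 kb. All pairs with both bins on chromosome 2 (0 to 19.7 Mb) and lying 5 or more bins apart were used, which gave 18528 of the 682696 pairs of bins with signal in both tissues. The short arm was taken as the 17 bins from 0 to 1.7 Mb, the pericentromere as the 50 bins from 1.7 to 6.7 Mb and the long arm as the 130 bins from 6.7 to 19.7 Mb, all on build TAIR10. The long arm held 7875 of the pairs. Both bins and pairs share a chromosome and a library, so they describe the chromosome and are not replicates of a tissue.

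The assay was in situ Hi-C, which fixes chromatin, cuts and religates its DNA and reads the junctions, each of which joins stretches that lay close together. The endosperm was F1 tissue of ecotype Col-0 with the genotype Col_wt x Col_wt, and the leaves were F1 leaves of the same ecotype and genotype from plants 4 weeks old. No treatment was applied to either tissue. The labels give 2 replicates per tissue, but each deposited map pools them, so each value below is a single measurement per tissue with no replicate spread and no test across replicates. The tissue labels could not be checked against marker genes, since Hi-C reads DNA contacts and not transcripts. The endosperm label gives no seed age.

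The endosperm is the nutritive tissue of the seed, formed from a second fertilisation and carrying an extra maternal genome. In Arabidopsis nuclei, the pericentromeres carry repeats, DNA methylation and few genes and condense into chromocenters, from which gene-rich arms extend as loops. The short arm of chromosome 2 ends in a nucleolus organiser, an array of ribosomal RNA genes, and the pericentromere of the Columbia reference carries a large insertion of mitochondrial DNA. Genes covered a median of 49.9% of a bin on the short arm, 13.5% in the pericentromere and 64.4% on the long arm.

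The leaf map held 18557893 contacts and the endosperm map 25033672. Within the chromosome 2 pairs there were 543001 contacts in leaf (95% counting interval 541558 to 544447) and 859386 in endosperm (857570 to 861205), with a median of 24 and 35 contacts per pair. No pair was at 0 in either tissue. Intervals given here cover counting error only, at 95%, and PCR duplicates and pooling add spread they do not hold. Contact levels are given relative to the mean of all pairs of bins on different chromosomes, so that 1.00 is the level between chromosomes.

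The 6 kinds of pair on chromosome 2 did not move alike between the tissues. Pairs within the short arm had a mean contact of 2.79 in leaf and 4.33 in endosperm. Pairs joining the short arm to the pericentromere had 0.971 in leaf and 2.01 in endosperm. That kind had the highest ratio of endosperm to leaf of the 6, with a leaf level slightly under the mean between chromosomes. Pairs within the pericentromere had 2.47 and 2.71, and pairs within the long arm 1.91 and 2.23. Pairs joining the pericentromere to the long arm had 1.32 and 1.37, and those joining the short arm to the long arm had 1.02 and 1.26. Every kind was higher in endosperm, by little where the pericentromere met the long arm.

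**Figure D1:**
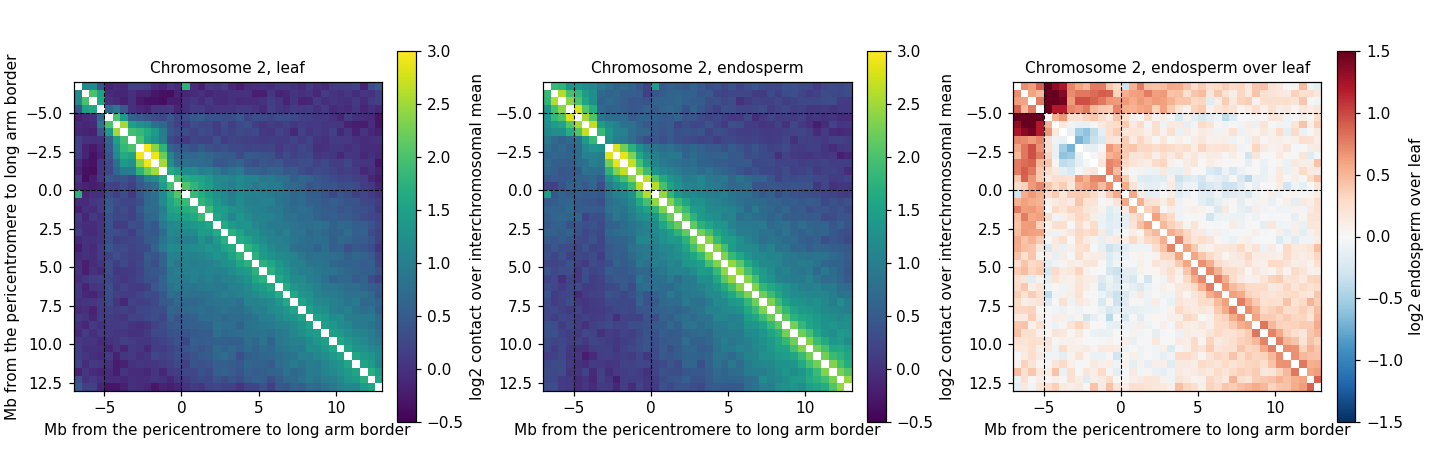
Contact within chromosome 2 in leaf, in endosperm and as endosperm over leaf (log2), in tiles of 500 kb, with both axes giving distance in Mb from the border of the pericentromere and the long arm. In leaf, the northern tip has low contact with most of the pericentromere, near the mean level between chromosomes. In endosperm the band along the diagonal runs through.

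The leaf map was broken near 1.5 Mb. The 15 northernmost bins (0 to 1.5 Mb) had a contact of 0.888 with the pericentromere in leaf (0.871 to 0.905) and 1.98 in endosperm (1.96 to 2.01), a log2 difference of 1.16. The same bins had 3.42 with each other in leaf (3.29 to 3.54) and 4.37 in endosperm (4.24 to 4.49). The tip was thus joined to itself in leaf, yet its contact with the neighbouring pericentromere was under the mean level between chromosomes. That mean covers all kinds of pair.

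The step lay between 2 adjacent bins. With the pericentromere from 2.1 to 4 Mb, the bin at 1.4 to 1.5 Mb had a contact of 0.860 in leaf and 2.75 in endosperm. The bin at 1.5 to 1.6 Mb had 2.07 and 3.05, and the bin at 1.6 to 1.7 Mb had 2.39 and 3.54. North of the step the leaf values ran from 0.736 to 1.20 and the endosperm values from 1.95 to 2.81, without overlap. With the long arm, the tip had 1.00 in leaf (0.989 to 1.01) and 1.26 in endosperm (1.25 to 1.27).

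At the far end, the tissues were alike: the 5 northernmost bins met the last 5 bins of the long arm at 1.30 in leaf and 1.27 in endosperm, whose counting intervals overlapped. What sets the break was not tested. Comparisons that need the short arm are therefore not used below unless they are named.

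A few bins carried many more reads than the rest. Before balancing, the northernmost bin had 5.51 times the median count of all usable bins of the genome in leaf and 9.10 times in endosperm. The bin at 3.6 to 3.7 Mb, in the pericentromere, had 23.0 times in leaf and 15.8 times in endosperm. The 3 bins from 3.2 to 3.5 Mb stood between 2.12 and 2.97 times the median in leaf and between 3.62 and 5.45 times in endosperm. These excesses were larger in endosperm except at 3.6 to 3.7 Mb.

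The most frequent pair of the chromosome joined the northern end to the long arm. The northernmost bin and the bin at 7.1 to 7.2 Mb shared 2008 contacts in leaf (1921 to 2098) and 3271 in endosperm (3160 to 3385), singled out after their values were seen. After balancing, that was a contact of 25.1 in leaf and 15.8 in endosperm, far above every class mean. Both bins had raw counts above the median, whose part in this contact was not tested. The bin at 7.1 to 7.2 Mb had 1.38 times the median count in leaf and 1.56 times in endosperm. Values without bins of over 1.5 times the median count are given for the results where they were computed.

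The first comparison asked how contact falls with distance along the long arm. At 0.5 Mb the mean contact was 3.43 in leaf and 5.69 in endosperm, so endosperm was 1.66 times higher. At 1.5 Mb the values were 2.39 and 2.92, and at 2.5 Mb 2.04 and 2.45. Endosperm was 1.22 times higher at 1.5 Mb and 1.20 times at 2.5 Mb, so most of the narrowing came before 1.5 Mb. At 4.5 Mb contact was 1.80 in leaf and 1.93 in endosperm, at 7.5 Mb it was 1.47 and 1.52, and at 10.5 Mb it was 1.19 and 1.20.

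Endosperm was higher, with an interval above 0, at 57 of the 106 distances that had 20 or more pairs. It was lower at 0 of them. The share of such distances over the 7 other arms, among them the southern arm of chromosome 1, was 65.6%. That was above the share on chromosome 2, so a rise at most distances was not particular to it. The nearest distance at which the interval reached 0 was 4 Mb, where leaf had 1.89 and endosperm 1.94. Over these distances, up to 11 Mb, the steeper endosperm curve thus went with a higher start.

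**Figure D2:**
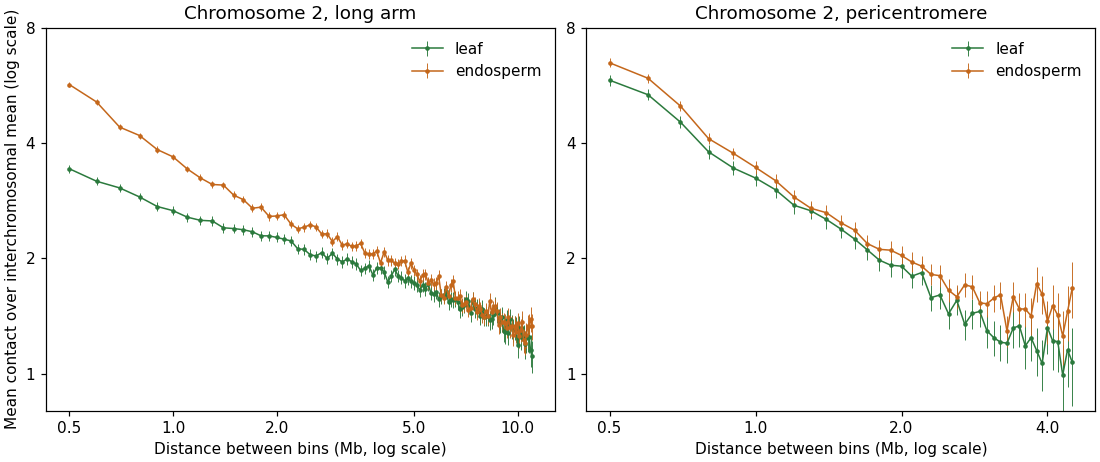
Mean contact of long-arm and pericentromeric pairs over the interchromosomal mean against distance in Mb, on log axes, for leaf and endosperm. The long-arm curves start at 3.43 in leaf and 5.69 in endosperm and meet beyond 4 Mb, whereas the pericentromeric curves run close together at short distances.

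The slope of contact against distance, both on log10 scales, showed where the curves differed. From 0.5 to 1 Mb it was -0.368 in leaf and -0.645 in endosperm, a change of -0.277 (-0.329 to -0.225). From 1 to 2 Mb it was -0.224 and -0.509, a difference of -0.285 (-0.335 to -0.235). From 2 to 5 Mb it was -0.276 and -0.347, a difference of -0.0715 (-0.102 to -0.0413). Most of the steepening therefore fell below 2 Mb. From 5 to 10 Mb the slopes were -0.409 and -0.488, and their difference was -0.0788 (-0.130 to -0.0281).

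Over 0.5 to 5 Mb the slope of the long arm was lower in endosperm by a difference of -0.163 (-0.172 to -0.153). The other 7 arms had differences from -0.152 on the southern arm of chromosome 5 to -0.0185 on the southern arm of chromosome 1, whose leaf map is also broken. All 8 arms were steeper in endosperm. The difference on chromosome 2 was the most negative of the 8, by a small margin over the southern arm of chromosome 5.

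From 0.5 to 5 Mb, the segment next to the pericentromere steepened more than the segment towards the telomere. Pairs within the proximal 65 bins (6.7 to 13.2 Mb) had a slope of -0.249 in leaf and -0.469 in endosperm, a change of -0.221 (-0.237 to -0.204). Pairs within the distal 65 bins (13.2 to 19.7 Mb) had -0.274 and -0.379, a difference of -0.105 (-0.123 to -0.0883). The intervals of the 2 differences did not meet. From 0.5 to 1 Mb alone the order was the other way, with -0.267 (-0.342 to -0.192) in the proximal and -0.305 (-0.382 to -0.227) in the distal segment, and the intervals overlapped. From 2 to 5 Mb alone, the proximal difference was -0.187 (-0.244 to -0.131) and the distal difference -0.00309 (-0.0607 to 0.0545). Beyond 2 Mb only the proximal segment thus differed past counting error. Measured from 0.5 to 3 Mb, the differences were -0.236 in the proximal and -0.171 in the distal segment. Over that range the proximal part also steepened more on each of the 7 other arms, with overlapping intervals on some.

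The share of long-range contact gave the same comparison bin by bin. Of the contact that long-arm bins made within the arm, 67.2% (67.0 to 67.4) lay beyond 2 Mb in leaf and 62.1% (62.0 to 62.3) in endosperm. In 130 of 130 long-arm bins, endosperm had the lower share. On the 7 other arms, among them the southern arm of chromosome 1 with its broken leaf map, it was lower in 87.6% of bins. The difference per bin ran from -8.69 to -0.508 percentage points, with a median of -5.00.

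The pericentromere did not share the change in slope at short range. Pairs within it had a slope of -0.827 in leaf and -0.836 in endosperm from 0.5 to 2.4 Mb, a difference of -0.00838 (-0.0426 to 0.0258). Over the same distances, the long arm went from -0.287 to -0.542, a difference of -0.255 (-0.272 to -0.239). The 2 differences were 0.247 apart (0.209 to 0.285), and 0.232 apart (0.190 to 0.273) without the bins of high raw count. Contact in the pericentromere thus fell steeply with distance in both tissues, while the long arm came nearer to that steepness in endosperm.

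Other pericentromeres varied. From 0.5 to 2.4 Mb their slopes changed by -0.487 on chromosome 1, -0.00381 on chromosome 3, 0.0106 on chromosome 4 and 0.0522 on chromosome 5. Chromosome 2 lay between chromosomes 1 and 3, and close to the latter. Taken to 4.5 Mb, the chromosome 2 slope was -0.774 in leaf and -0.676 in endosperm, a change of 0.0983 (0.0631 to 0.133). The sign depended on the range, since it was -0.0376 from 0.5 to 2 Mb.

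The second comparison asked how far the pericentromere keeps apart from the long arm. Segregation was measured as the log2 of contact within the pericentromere times contact within the long arm, over the squared contact between them, with each contact divided by the mean at its distance (0.5 to 4.9 Mb). A value above 0 means that like meets like. The index was 0.02 in leaf (-0.01 to 0.05) and 0.09 in endosperm (0.06 to 0.11), a difference of 0.07 (0.02 to 0.11). Contact over the mean at the same distance was 0.951 in leaf and 0.871 in endosperm within the pericentromere, 0.977 and 0.927 between it and the long arm, and 1.02 and 1.05 within the long arm. Both tissues thus showed little separation by this measure.

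The index also depended on how distances were averaged. When the same ratio was taken at each distance and then averaged, it was -0.31 in leaf (-0.35 to -0.27) and -0.10 in endosperm (-0.13 to -0.06), a difference of 0.21 (0.16 to 0.27). The sign of both tissues turned, but endosperm remained the higher. With the averaged ratio the other arms changed by between -0.62 on chromosome 4 and 0.02 on the southern arm of chromosome 5. Chromosome 2 lay above all 7 of them, but the distances differed, reaching 4.5 Mb on chromosome 2, 2.4 Mb on chromosome 4, 3.5 Mb on chromosome 1, 3.7 Mb on chromosome 5 and 4.4 Mb on chromosome 3. By distance, the ratio was -0.18 in leaf and -0.34 in endosperm from 0.5 to 1 Mb, but -0.42 and -0.15 from 1 to 2 Mb and -0.38 and -0.02 from 2 to 3 Mb. Endosperm was thus the lower tissue for near pairs and the higher for pairs beyond 1 Mb.

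Leaving out the pericentromere's outer 5 bins on each side turned the direction. The pooled index was then 0.23 in leaf and 0.13 in endosperm, a change of -0.11. With the short arm counted as arm, the index was 0.57 in leaf (0.54 to 0.60) and 0.11 in endosperm (0.09 to 0.13), a difference of -0.46, and that value includes the leaf break. The direction of the change in segregation on chromosome 2 was therefore set by which bins were counted.

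The distance-matched ratio of contact within the pericentromere to contact within the long arm gave the clearest picture. From 0.5 to 1 Mb its log2 was 0.52 in leaf and 0.07 in endosperm, a change of -0.45 (-0.48 to -0.41). From 1 to 2 Mb it was -0.01 and -0.24, a difference of -0.22. Near neighbours in the leaf pericentromere met more often than near neighbours on the leaf long arm, and in endosperm the excess was small.

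Beyond 2 Mb the pericentromere was the weaker of the 2 in both tissues. From 2 to 3 Mb the log2 ratio was -0.44 in leaf and -0.47 in endosperm, a change of -0.03 (-0.08 to 0.02). From 3 to 4.5 Mb it was -0.65 and -0.48, a difference of 0.18 (0.11 to 0.25). Without the bins of high raw count the leaf values from the nearest range to the farthest were 0.61, 0.05, -0.39 and -0.64, and the endosperm values were 0.22, -0.14, -0.42 and -0.46. The order of the tissues was kept in each range.

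The change relative to distance differed along the pericentromere. The mean at the same distance was here taken over the pericentromere and the long arm together. In the 10 bins from 3.7 to 4.7 Mb, contact with the rest of the pericentromere over the mean at the same distance averaged 1.15 in leaf and 0.945 in endosperm. It was lower in endosperm in 10 of 10 bins, with a median log2 change of -0.29. In the 10 bins from 5.7 to 6.7 Mb, which adjoin the long arm, it averaged 0.753 in leaf and 0.886 in endosperm. There it was higher in 10 of 10 bins, with a median log2 change of 0.24.

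The other stretches were as follows. From 1.7 to 2.7 Mb the means were 0.829 and 0.827, with a median change of 0.00. From 2.7 to 3.7 Mb they were 0.944 and 0.736, with a median of -0.39 and all 10 bins lower, though this stretch holds the bins of high raw count. From 4.7 to 5.7 Mb they were 1.09 and 0.964, with a median of -0.20. By these values the leaf core lay above the edges, and in endosperm core and southern edge differed less. Edge bins have farther partners than core bins, and contact within the pericentromere over that mean falls with distance. It was 1.29 in leaf and 1.03 in endosperm from 0.5 to 1 Mb. From 3 to 4.5 Mb it was 0.685 and 0.762. How much of the pattern comes from partner distance was not tested.

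Gene cover was set beside the changes. From north to south it averaged 20.3%, 22.1%, 6.88%, 11.3% and 23.6% over the 5 stretches. The stretch with the lowest median change had 22.1% and the stretch with the highest had 23.6%. The former holds bins of high raw count, whose cover from 3.2 to 3.5 Mb was 27.2%, 34.4% and 49.7%. Whether the change follows cover bin by bin was not tested. Over the 50 pericentromeric bins, contact with the pericentromere and gene cover had a Pearson correlation of -0.58 in leaf and -0.50 in endosperm. The values of the 2 tissues correlated at 0.56 over the same 50 bins. These bins share 1 library per tissue and overlapping partners, so the correlations are descriptions.

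Counted by bin, 8 pericentromeric bins rose and 24 fell by 0.2 or more on the log2 scale. That was 64.0% of 50, and the changes are relative to the mean at the same distance over pericentromere and long arm together. A fall is therefore not by itself a loss of contact. Undivided, the mean within the pericentromere was 2.47 in leaf and 2.71 in endosperm. The other pericentromeres, measured separately with each of the 7 other arms, had 73.4% of bins past the same size, with 11.0% rising and 62.4% falling. The 3 with the largest rise all lay in the southern edge. The bin at 6.2 to 6.3 Mb went from 0.719 in leaf to 0.934 in endosperm, a log2 change of 0.38. The bin at 6.1 to 6.2 Mb went from 0.714 to 0.898 (0.33) and that at 6.5 to 6.6 Mb from 0.715 to 0.882 (0.30). The 3 with the largest fall, at 3.3 to 3.4, 3.2 to 3.3 and 3.4 to 3.5 Mb, had log2 changes of -0.55, -0.51 and -0.44, and all 3 had a high raw count. Without such bins, 8 rose and 18 fell of 46.

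**Figure D3:**
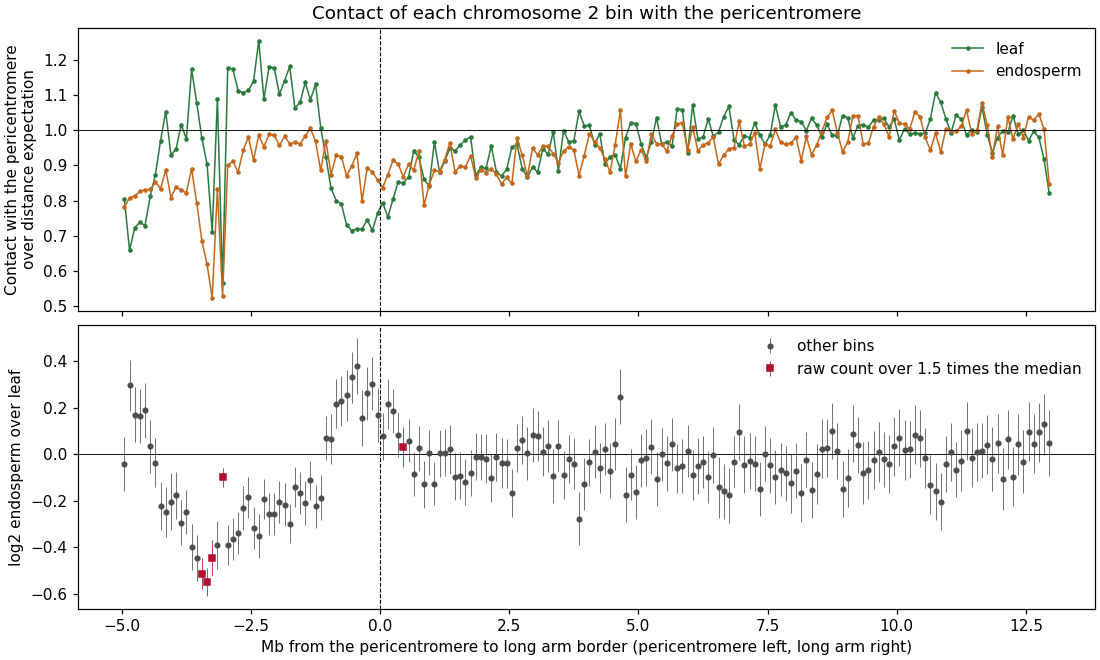
Contact of each pericentromeric bin with the rest of the pericentromere, over the mean at the same distance, in leaf and endosperm, against distance in Mb from the border with the long arm. Within the pericentromere, leaf is higher through the core and endosperm is higher over the 10 bins next to the long arm.

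Relative to distance, contact of the long arm with the pericentromere changed little. Over 130 long-arm bins the values over the mean at the same distance spanned 0.753 to 1.11 in leaf, and in endosperm they spanned 0.787 to 1.08, with a median log2 change of -0.02 and a range from -0.28 to 0.25. Of the 130, 2 bins rose and 2 fell by 0.2 or more, which is 3.08%. With the counting interval in place of that size, 3 bins were higher in endosperm and 19 lower. Among bins of the other 7 arms 10.3% passed that size, with 4.38% rising and 5.88% falling. The 2 tissues correlated at 0.58 over the 130 bins. Since only contact relative to distance is compared, a gradient with distance common to all bins is removed. The mean was taken over the pericentromere and the long arm together. Beyond the length of the long arm it holds only the kind of pair scored here. Changes of distal bins are thus drawn towards 0, and the share of 3.08% cannot be read as stable contact.

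A few long-arm bins stood out. The bin at 11.3 to 11.4 Mb went from 0.890 to 1.06, a log2 change of 0.25. The bins at 6.8 to 6.9 and 6.9 to 7 Mb, close to the pericentromere, went from 0.753 to 0.874 (0.22) and from 0.805 to 0.915 (0.19). The largest falls were at 10.5 to 10.6 Mb (1.06 in leaf and 0.871 in endosperm, -0.28), 17.5 to 17.6 Mb (1.08 and 0.938, -0.20) and 13.4 to 13.5 Mb (1.07 and 0.946, -0.17). These bins were scattered along the arm, apart from the pair at the border.

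Taken by 1 Mb stretches, the profile rose away from the pericentromere in both tissues. The stretch from 6.7 to 7.7 Mb had 0.850 in leaf and 0.876 in endosperm, a log2 change of 0.04 (0.01 to 0.07). The stretches from 12.7 to 14.7 Mb had 1.01 in leaf and 0.961 in endosperm, each with a log2 change of -0.07. The last stretch, from 18.7 to 19.7 Mb, had 0.971 and 0.991, a change of 0.03 (0.00 to 0.06). Without division by distance, the same 3 places had 1.82, 1.31 and 0.933 in leaf, and 2.15, 1.26 and 1.03 in endosperm, the second being the stretch from 12.7 to 13.7 Mb. In leaf the telomeric stretch thus met the pericentromere at under the mean level between chromosomes, and in endosperm at slightly above it. That mean covers all kinds of pair, not only pericentromeres with arms.

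The third comparison asked how contact is arranged along the long arm. The arm was divided into 13 blocks of 1 Mb, numbered 1 to 13 from the pericentromere, and each of the 91 pairs of blocks was given its mean contact over the mean at the same distance within the arm. A change of 0.2 or more on the log2 scale was counted. There were 5 rises and 3 falls, 8.79% of the pairs. Over the 7 other arms 13.8% passed that size, and without the southern arm of chromosome 1, 8.33% did. The share on chromosome 2 was near that of the unbroken arms, where rises were 1.77% and falls 6.57%. On chromosome 2 all 5 rises involved block 13, so they share its bins. The order of rises and falls depended on the setting. They were 7 and 8 on recovered counts and 0 and 1 with blocks of 20 bins. They were 32 and 27 with blocks of 5 bins, 21 and 20 at a size of 0.1, and 5 and 3 at 200 kb or without the bins of high raw count.

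Over all 91 pairs the values spanned 0.846 to 1.16 in leaf, and in endosperm 0.887 to 1.16. The interval of the change lay above 0 for 28 pairs and below 0 for 26, numbers that division by the arm's own mean draws together.

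The rises lay at the telomeric end. Block 8 with block 13 (13.7 to 14.7 Mb with 18.7 to 19.7 Mb) went from 0.932 in leaf to 1.14 in endosperm, a log2 change of 0.29 (0.22 to 0.35). Block 9 with block 13 went from 0.949 to 1.14 (0.26). Block 13 with itself went from 0.930 to 1.10 (0.25). In these 3 pairs the last 1 Mb of the arm went from under to over the arm's mean for its distances. With block 6 it stayed under, at 0.846 in leaf and 0.950 in endosperm, and with block 1 it was at 1.01 in both tissues.

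The falls lay at the pericentromeric end. Block 1 with block 2 (6.7 to 7.7 Mb with 7.7 to 8.7 Mb) went from 1.15 to 0.941, a log2 change of -0.29 (-0.34 to -0.24). Block 2 with itself went from 1.16 to 0.949 (-0.29). Block 1 with block 6 went from 1.16 to 0.958 (-0.28). These pairs were enriched in leaf and slightly depleted in endosperm.

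Contact within single blocks changed most at the same ends of the arm, in blocks 2 and 13. The 13 values spanned 0.887 to 1.16 in leaf, where blocks 1 and 2 (1.15 and 1.16) were the highest and block 10 the lowest. In endosperm block 13 (1.10), block 1 (1.10) and block 6 (1.11) were the highest, and block 9 (0.887) and block 3 (0.897) the lowest.

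The named pairs were the extremes of a gradient. Of the 21 pairs with both blocks among 1 to 6, 18 were lower in endosperm, with a median log2 change of -0.13. Of the 21 pairs with both blocks among 8 to 13, 20 were higher, with a median of 0.12. Block 1 was lower with 13 of 13 blocks and block 13 higher with 12 of 13, and these groups were chosen after their values were seen. All pairs share a common mean at each distance, so a rise at one end of the arm forces a fall elsewhere.

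**Figure D4:**
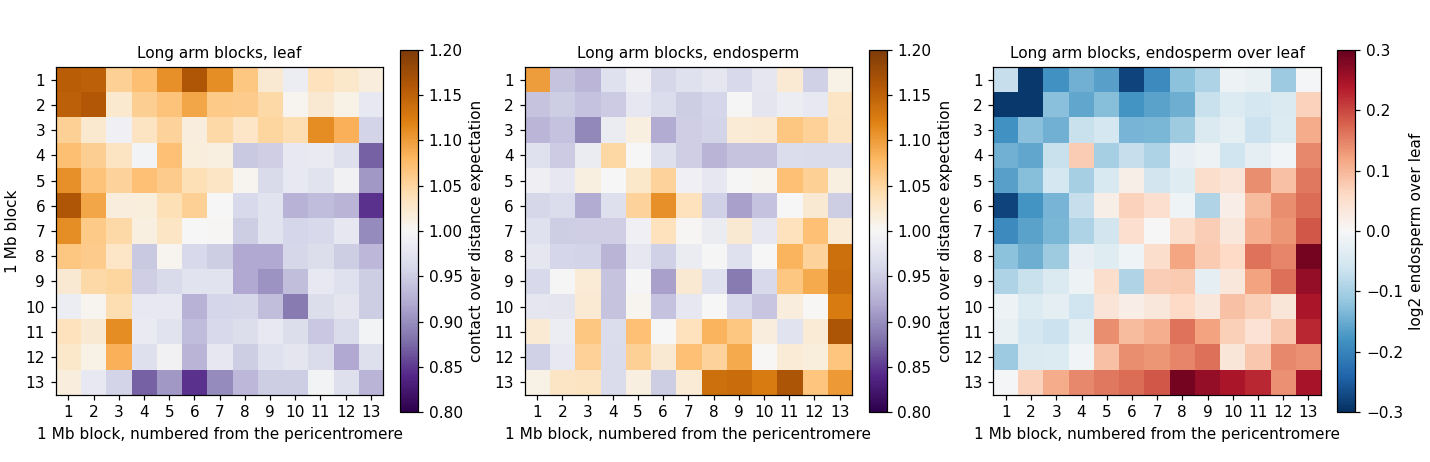
Contact between the 13 blocks of the long arm over the mean at the same distance, in leaf, in endosperm and as endosperm over leaf (log2), with blocks numbered from the pericentromere. The largest falls join blocks 1, 2 and 6, and the largest rises join block 13 to blocks 8, 9 and itself.

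Over the 91 pairs of blocks the tissues correlated at -0.05. By separation the correlation was 0.33 for the 13 pairs within a block, -0.20 for the 12 of neighbouring blocks, -0.37 for the 38 of blocks 2 to 5 apart and 0.16 for the 28 farther apart, so the pooled value averages unlike ones. The pairs share bins and 1 library per tissue. The pooled correlation on the other arms was 0.67 and 0.09 on the northern and southern arms of chromosome 1, 0.59 and 0.58 on those of chromosome 3, 0.43 on the southern arm of chromosome 4, and 0.56 and 0.42 on those of chromosome 5. Chromosome 2 was the lowest of the 8, and the next lowest was the arm broken in leaf. The spread of the values was modest in both tissues, with an SD over block pairs of 0.0929 in leaf and 0.0797 in endosperm on the log2 scale.

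The gradient was measured directly by setting the proximal 65 bins against the distal 65. At 0.5 to 3 Mb, leaf had a mean contact of 2.53 in the proximal segment and 2.31 in the distal segment, a log2 ratio of 0.12 (0.11 to 0.14). Endosperm had 3.02 and 3.16, a log2 ratio of -0.08 (-0.10 to -0.07). The change was -0.21 (-0.23 to -0.18), and the sign turned between the tissues. Both segments gained contact in endosperm, the distal segment by more.

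Other arms moved the same way. The proximal over distal ratio was lower in endosperm on 8 of 8 arms, and the changes on the other 7 ran from -0.24 on the southern arm of chromosome 5 to -0.03 on the southern arm of chromosome 1. Leaf was above 0 on 7 of the 8 arms and endosperm below 0 on 7. The turn on chromosome 2 was therefore not particular to it.

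**Figure D5:**
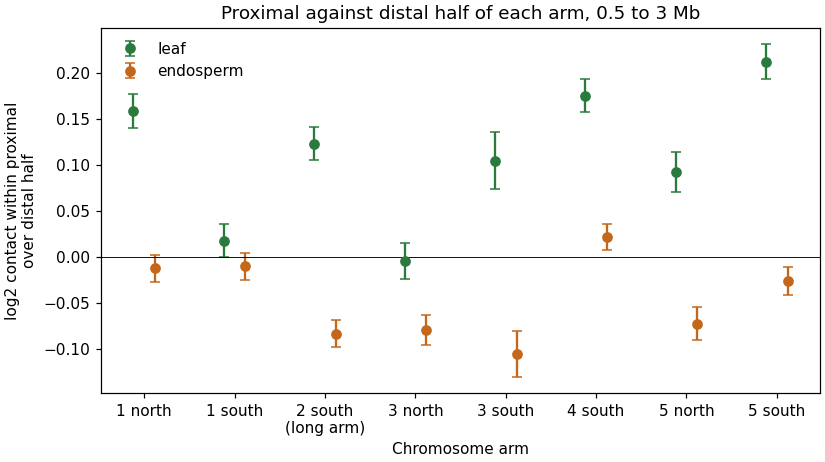
Proximal over distal contact (log2) at 0.5 to 3 Mb on each of 8 arms, in leaf and endosperm. Each arm is lower in endosperm, and the chromosome 2 long arm goes from 0.12 to -0.08.

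The telomeric end was also scored with the proximal segment and with the pericentromere. The last 10 bins of the arm had 0.959 in leaf and 1.06 in endosperm with the proximal 65 bins, a log2 change of 0.15 (0.12 to 0.18). The mean at the same distance was here taken over the pericentromere and the long arm together, so these levels are not on the scale of the block values. With the pericentromere they had 0.971 and 0.991, a change of 0.03 (0.00 to 0.06). At the distances from the telomeric end to the pericentromere, that mean rests almost wholly on pairs joining pericentromere and long arm. It thus moves with the values it divides, so these changes cannot be set against each other. Without division, the last 10 bins met the pericentromere at 0.933 in leaf and 1.03 in endosperm.

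Borders along the arm were sought as positions that contacts seldom span. At each of 91 positions, the pairs 5 to 20 bins apart that span it were averaged over the mean at the same distance, and a log2 change of 0.1 or more was counted. There was 1 rise and there were 9 falls, 11.0% of positions, against 16.8% over the 7 other arms (6.53% rising and 10.3% falling) and 10.5% without the southern arm of chromosome 1. With other settings the rises and falls were closer in number: 4 and 4 at 200 kb, 11 and 10 for pairs 5 to 10 bins apart, and 13 and 21 on recovered counts. The 9 falls were neighbouring positions from 8.7 to 9.5 Mb, so they share most of their pairs. Spanning contact at 8.8 Mb went from 1.02 in leaf to 0.930 in endosperm, a log2 change of -0.13 (-0.17 to -0.09), and at 9.4 Mb from 1.02 to 0.945 (-0.12). The next named position, 10.6 Mb, had 1.05 and 0.985, a change of -0.09 that did not pass the size.

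The counted rise was at 17.5 Mb, where spanning contact went from 0.969 to 1.04 (0.10). The next highest changes did not pass the size of 0.1, at 15.9 Mb (0.942 and 0.999, a change of 0.08) and at 14.2 Mb (0.947 and 1.00, also 0.08). A local minimum was the lowest of the 5 positions on either side, so the 5 positions nearest each end could not qualify, among them 8.8 Mb with the lowest endosperm value. Local minima were found at 11.4 and 14.9 Mb in leaf and at 10.9, 13.5 and 14.9 Mb in endosperm. The minimum at 14.9 Mb was shared, with a spanning contact of 0.931 in leaf and 0.968 in endosperm. That shared minimum was deeper in leaf.

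Genes of known tissue role were placed in these bins as landmarks. All 14 genes of the list matched the gene table by locus tag. FIS2, a Polycomb subunit that acts in endosperm, lies at 14.9 to 15 Mb in a bin whose contact with the pericentromere changed by -0.02 on the log2 scale. HDG3, a homeodomain gene expressed from the paternal genome in endosperm, lies in the bin at 13.7 to 13.8 Mb, which changed by -0.04. IKU1, a regulator of endosperm growth, lies in the bin at 14.8 to 14.9 Mb, which went from 1.03 in leaf to 0.914 in endosperm (-0.17, interval -0.29 to -0.04). None of these 3 bins passed the size of 0.2.

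Photosynthesis genes were placed in the same way. RCA, which encodes Rubisco activase, lies in the bin at 16.5 to 16.6 Mb, which changed by -0.04. LHCB1.4 and LHCB1.5, which encode light-harvesting proteins, share the bin at 14.5 to 14.6 Mb with AGL29, a MADS-box gene, so the leaf genes and AGL29 could not be separated at this bin size (-0.08). LHCB2.1 and LHCB2.2 lie in the pericentromere as defined here. The bin of LHCB2.1 (1.8 to 1.9 Mb) went from 0.658 to 0.808 in contact with other pericentromeric bins (0.30, interval 0.19 to 0.41), while that of LHCB2.2 (1.7 to 1.8 Mb), a gene that runs into the former bin, changed by -0.04.

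The remaining MADS-box genes varied within the same range. The bin of AGL48 changed by 0.07, that of SVP, a floral repressor, by 0.00, that of AGL17 by 0.08 and that shared by SOC1, a floral activator, and AGL6 by 0.06. The share of contact beyond 2 Mb was lower in endosperm in each of the long-arm bins of these genes, with differences from -6.29 to -3.26 percentage points. The median difference over the arm, -5.00, lay inside that range.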

How the data were processed

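Each tissue has balanced signal matrices, deposited by the authors at 100 kb and 200 kb bins with both replicates pooled. The tools were HiC-Pro 2.9.0 with Bowtie2 and the build TAIR10, as the submitters' processing notes list them. For the enzyme, read filters and balancing, settings were not given in the sources used here. Balancing evens out coverage between bins, including differences in copy number. Whole contact counts were recovered from the signal, as each value is a count over 1 factor per bin, and 100% of values came out whole within 0.01. Bins with values for under 50% of the others were left out, which kept 1168 of 1193 bins and all 197 of chromosome 2 (bins 306 to 502, of which 323 to 372 were pericentromere).

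Intervals of 95% were computed by the delta method from Poisson counts with the factors fixed. With 1 pooled map per tissue no test was made. Mean contact over that at the same distance was used for regions. Calls needed a log2 change of 0.2 for bins and blocks or 0.1 for positions. Named regions were the 3 largest rises and 3 largest falls of each kind, plus 14 landmark genes. Positions were at least 5 bins apart. The gene table is of TAIR10.1 and gave the names, the bin of each gene and the cover of each bin by protein-coding genes. The limits of the pericentromeres were taken from that cover. The members, lists and landmark genes were chosen with earlier results of these data known. The alternatives were the distance range, recovered counts, 200 kb bins, removed bins, block size and call size. Python 3.11.15, numpy 2.4.6, scipy 1.17.1 and matplotlib 3.10.9 were used. Measures were tested on simulated data.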

Additional observations from a re-analysis of the deposited data

Results flagged for a closer look

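The ratio of proximal to distal contact on the chromosome 2 long arm had opposite signs in the tissues, 0.12 in leaf against -0.08 in endosperm on the log2 scale, so it changed by -0.21. The difference was not tested across replicates, since each tissue is 1 pooled map. The same direction was found on all 8 arms compared.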

How the results depend on the processing

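Of 31 alternatives, 15 moved a result by less than its counting interval or, for shares of calls, by less than 1.5 times, 14 moved it by more and 2 reversed it. The long-arm difference in slope was -0.108 from 1 to 10 Mb and -0.274 from 0.5 to 2 Mb. The segregation difference was reversed to -0.11 with the pericentromere trimmed by 5 bins on each side, was 0.13 for pairs 10 to 49 bins apart, and was 0.21 as the average of ratios at each distance. The pericentromere's difference in slope was 0.0487 on recovered counts and reversed to -0.0376 from 0.5 to 2 Mb. The proximal over distal change was -0.26 on recovered counts and -0.31 for pairs 10 to 50 bins apart. Block pairs called were 16.5% on recovered counts, 18.2% with blocks of 5 bins, 4.76% with blocks of 20 bins and 45.1% at a log2 size of 0.1. Positions called were 37.4% on recovered counts, 17.4% at 200 kb and 18.9% for pairs 5 to 10 bins apart. The causes of these shifts were not tested. The averaged ratio and all alternatives for the pericentromere's slope and the proximal over distal change were chosen after seeing the data. No paired analysis was possible because each map pools both replicates, and no replicate could be left out for the same reason. With a median of 24 contacts per pair in leaf, most single pairs are imprecise.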
